A study of Mus musculus with 32 samples.

Results

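Ribosome-bound RNA of spinal astrocytes was compared between male mice 3 weeks after fracture and male mice without fracture. The comparison rests on 6 male pull-down libraries out of 32 libraries in the whole study, 3 from the 3-week group and 3 from the uninjured group. They were chosen by the sex, injury state and pull-down named in the labels, and no measured value entered that choice. All of these mice carried the genotype given as Aldhl1l-CreER;Rpl22-HA, so the uninjured group had the same alleles. Aldh1l1-CreER is a tamoxifen-inducible recombinase driven in astrocytes, and Rpl22-HA is a ribosomal protein that carries an HA tag after recombination. The lumbar spinal cord was homogenised, tagged ribosomes were precipitated for the Trap libraries, and RNA of the unprecipitated homogenate made up the Input libraries. The treated mice had a fracture, used in the study as a model of complex regional pain syndrome, and the others had none. Age was not given in the sources used here. The labels do not state that each library came from a separate animal, so the p-values below measure a spread between libraries. The main fit shares that spread over all 24 Trap libraries of the study, not only the 6 compared.

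Astrocytes take up glutamate and potassium released by neurons, are joined by gap junctions, store glycogen, and hand lactate and cholesterol to neighbouring cells. In the spinal dorsal horn they respond to peripheral injury, and reactive astrocytes typically raise Gfap, a filament protein. RNA bound to tagged ribosomes is a proxy for what a cell type is translating. In bulk samples such as these, fewer cells of a type and less RNA per cell cannot be told apart.

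The 3 libraries at 3 weeks held 17604684, 21588441 and 22232630 estimated counts, and the 3 uninjured libraries held 17124018, 23189205 and 21223345. Levels are given as CPM, a library's counts scaled to a common total, and 1 CPM stands for about 17.1 counts in the smallest of the 6 libraries. All 25 astrocyte markers averaged higher in the male Trap than in the male Input libraries, with a median ratio of 6.89. The Y-linked Ddx3y lay between 63.8 and 105 CPM in all male Trap libraries, against 0.412 to 0.793 CPM in all female ones. Summed astrocyte markers came to 90700 to 95900 CPM at 3 weeks and 90500 to 94000 CPM without injury. Summed markers of neurons (548 to 628 CPM at 3 weeks, 479 to 700 CPM uninjured), oligodendrocytes (4080 to 4760 CPM at 3 weeks, 3120 to 5560 CPM uninjured) and blood cells (339 to 1570 CPM at 3 weeks, 775 to 2270 CPM uninjured) overlapped between the groups. Endothelial markers summed to 363 to 369 CPM at 3 weeks and 372 to 427 CPM uninjured. Those of mural cells and fibroblasts summed to 244 to 255 CPM at 3 weeks and 261 to 267 CPM uninjured, so both sums were lower at 3 weeks without overlap. Of single members, 7 of 13 endothelial and 10 of 14 mural and fibroblast genes were higher, against 48.4% of all genes, with medians of 0.31 and 0.25 on the log2 scale. The members were low, with a mean log2 CPM at 3 weeks of 0.86 over the endothelial list and 1.64 over the other. The endothelial sum was mostly Slc2a1, the glucose transporter GLUT1. In the TMM-scaled values used for single genes (described under processing), Slc2a1 had 343 to 366 CPM at 3 weeks and 361 to 433 CPM uninjured. Mitochondrially encoded genes took 0.136% to 0.219% of the counts in the 6 male libraries. By contrast, a female 3-week library stood apart with 0.489%, which touches the comparisons with females below.

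No gene passed the test in males. Of 15380 genes tested with edgeR's quasi-likelihood test, 0 had a Benjamini-Hochberg adjusted p under 0.05, a background of 0%, and the smallest adjusted p was 0.464. At an unadjusted p under 0.05 edgeR gave 474 genes (3.08%), of which 255 were higher (1.66%) and 219 lower (1.42%) at 3 weeks. DESeq2 called 1 gene, Bcam. The libraries of the groups did not overlap for 830 genes that were higher at 3 weeks (5.4%) and 903 that were lower (5.87%). The median standard error of a log2 fold change was 0.171 over all genes and 0.136 over the 10323 genes with a mean of at least 5 CPM. To be called as the first gene, a gene needed an unadjusted p of 3.25e-06, and the smallest one observed was 7.5e-05. In females, the same fit called 6 genes (0.039%) and gave 1303 at an unadjusted p under 0.05 (8.47%). A fracture effect that differed between males and females was called for 0 genes by edgeR, with 398 at an unadjusted p under 0.05 (2.59%) and a smallest adjusted p of 1, and for 1 by DESeq2.

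The values that follow are therefore descriptions of single genes. They begin with the 12 genes on each side with the smallest unadjusted p among named genes averaging at least 5 CPM. None of the 24 was called, and since their p-values chose them, their lack of overlap between the groups is no support. The last gene inside the set was Fam89b on the higher side (log2 fold change 0.43) with Rai1 the first outside (0.52). On the lower side Mkks was the last inside (-0.38) and Parg the first outside (-0.33).

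The higher side of this set held the transcription factors Sox1 and Sox12 and the receptor genes F2r and Gabbr2. Sox1, a transcription factor of neural progenitors (ENSMUSG00000096014.1, GRCm38 chr8:12395295-12400126, plus strand), had 115, 118 and 121 CPM at 3 weeks, against 89.8, 81.4 and 93.2 CPM in uninjured males. Its log2 fold change was 0.42 ± 0.0951 (standard error), with an adjusted p of 0.464 in edgeR. The 3 libraries at 3 weeks lay close together and above every uninjured one.

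Nrarp, a Notch target that feeds back on Notch signalling, had 68.1, 76.6 and 64.2 CPM at 3 weeks and 38.3, 44.6 and 48.8 CPM uninjured, a log2 fold change of 0.66 ± 0.191 (adjusted p = 1 in edgeR). All 3 libraries at 3 weeks exceeded the highest uninjured one. F2r, the thrombin receptor PAR1, had 6.95, 6.70 and 6.19 CPM at 3 weeks and 4.18, 4.09 and 3.25 CPM uninjured, with a log2 fold change of 0.79 ± 0.186 (adjusted p = 0.658 in edgeR). Its groups were likewise apart, at a low level in both. Gabbr2, a subunit of the GABA-B receptor, had 67.7, 69.1 and 74.7 CPM at 3 weeks and 50.4, 53.3 and 50.8 CPM uninjured, a log2 fold change of 0.45 ± 0.124. Sox12, another Sox transcription factor, differed by 0.57 ± 0.157, the scaffold protein gene Mpp2 by 0.48 ± 0.141, the RNA-binding protein gene Mex3d by 0.64 ± 0.184 and Fam89b by 0.43 ± 0.134, all higher at 3 weeks.

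Secreted and membrane proteins of this set lay on both sides. Nnat, an imprinted gene for a small membrane protein, had 413, 414 and 380 CPM at 3 weeks and 308, 309 and 295 CPM uninjured, a log2 fold change of 0.40 ± 0.109 (adjusted p = 1 in edgeR). It was the most abundant gene among the 12 higher ones. The secreted proteins Smoc1 (0.50 ± 0.145), Thsd4 (0.66 ± 0.183) and Olfml3 (0.96 ± 0.291) were also higher at 3 weeks, each without overlap between the groups.

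Bcam, a receptor for laminin of the basement membrane (ENSMUSG00000002980.14, GRCm38 chr7:19756131-19771016, minus strand), had the smallest p of all genes in this comparison. It had 37.1, 38.4 and 42.3 CPM at 3 weeks, against 53.0, 52.8 and 52.2 CPM in uninjured males, which lay within about 1 CPM of each other. The log2 fold change was -0.42 ± 0.0883 with a 95% interval of -0.60 to -0.24 and an adjusted p of 0.464 in edgeR, while DESeq2 gave -0.41 with an adjusted p of 0.0499. The water channel gene Aqp6 had 13.4, 17.1 and 20.6 CPM at 3 weeks and 23.3, 27.5 and 24.9 CPM uninjured, a log2 fold change of -0.56 ± 0.147. Amhr2, the receptor of anti-Müllerian hormone (-0.58 ± 0.167), and Slc13a3, a sodium-coupled dicarboxylate transporter (-0.51 ± 0.163), were lower at 3 weeks as well.

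Several enzymes and regulators of actin and stress made up the rest of the lower side. Mat2a, which makes the methyl donor S-adenosylmethionine (ENSMUSG00000053907.10, GRCm38 chr6:72432799-72439558, minus strand), had 53.6, 63.6 and 66.8 CPM at 3 weeks and 97.3, 117 and 80.6 CPM uninjured. Its log2 fold change was -0.68 ± 0.151 (adjusted p = 0.464 in edgeR), and it shares reads with an unnamed near-identical gene record, so its level is uncertain. The uninjured libraries were spread more widely than those at 3 weeks, and the groups stayed apart.

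Ky, known in muscle as kyphoscoliosis peptidase, had 4.43, 4.80 and 6.15 CPM at 3 weeks and 9.70, 8.27 and 9.60 CPM uninjured (log2 fold change -0.83 ± 0.186, adjusted p = 0.464 in edgeR). Ptgs1, the constitutive cyclooxygenase, had 6.95, 5.75 and 11.1 CPM at 3 weeks and 14.6, 15.1 and 11.7 CPM uninjured, where the nearest libraries of both groups almost met. Sarm1, an NAD-cleaving enzyme of axon degeneration, differed by -0.66 ± 0.176. Rflnb, a filamin-binding regulator of actin, had 18.7, 22.4 and 22.1 CPM at 3 weeks and 32.8, 28.5 and 28.0 CPM uninjured, a log2 fold change of -0.49 ± 0.134. Gadd45g, a stress-responsive gene, differed by -0.53 ± 0.147.

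The lower side also held Fam220a, whose 2 records overlap on chromosome 5 in the annotation. One record had 0, 0.095 and 0.0442 CPM at 3 weeks and 10.2, 10.3 and 11.8 CPM uninjured, and the other had 22.7, 27.4 and 29.7 CPM at 3 weeks and 13.5, 15.0 and 15.7 CPM uninjured. Their sum came to 22.7, 27.5 and 29.8 CPM at 3 weeks and 23.8, 25.3 and 27.5 CPM uninjured, with overlap. The difference of each record alone is uncertain, because the counting could divide reads between them, and Fam220a is left out of the summaries of the leading genes below, which leaves 23.

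**Figure D1:**
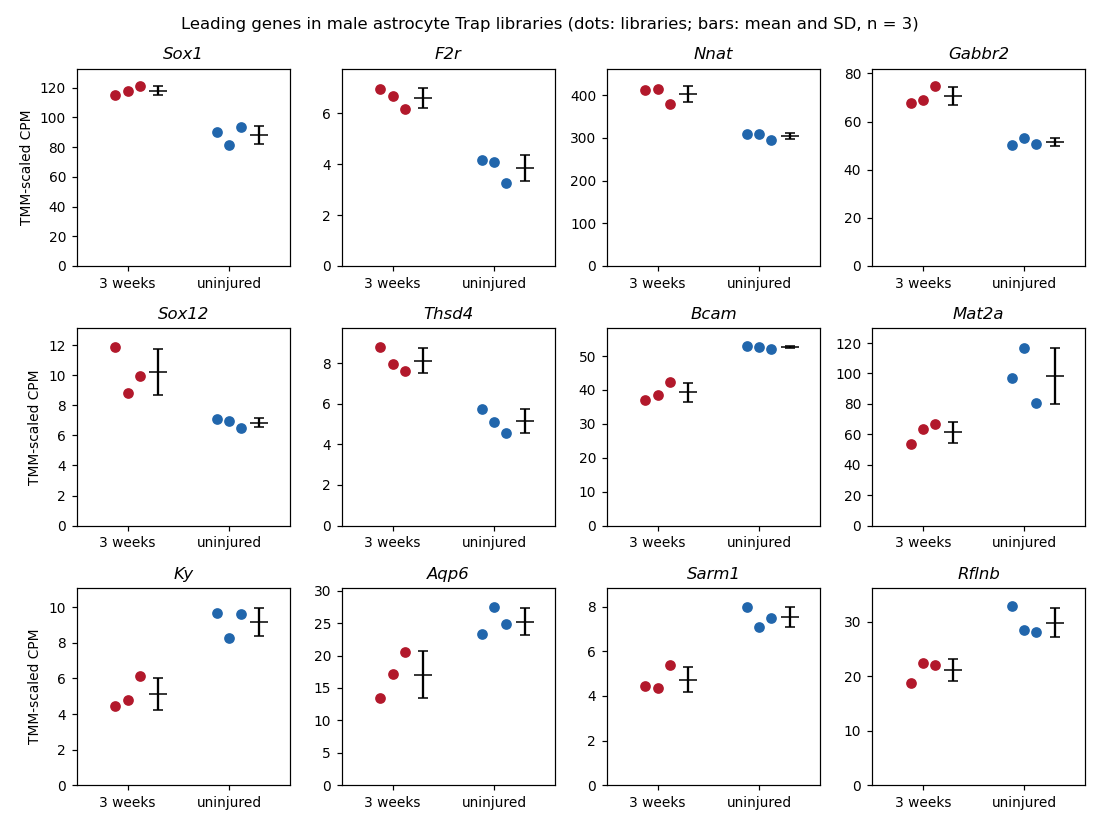
TMM-scaled CPM of the 6 higher and 6 lower leading genes with the smallest p in male Trap libraries, with 3 weeks on the left of each panel and uninjured on the right. Dots are libraries and bars the mean and SD (n = 3); the groups do not overlap for any of the genes drawn, which were chosen for a small p.

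Several abundant astrocyte genes differed little. Gfap had 10900, 12300 and 11800 CPM at 3 weeks and 10200, 11900 and 8810 CPM uninjured, a log2 fold change of 0.18 ± 0.112 with a 95% interval of -0.05 to 0.41. The 3-week libraries overlapped with the uninjured ones, and the interval includes 0. Fold changes lay near 0 for the water channel gene Aqp4 (-0.02 ± 0.117), the glutamine synthetase gene Glul (0.01 ± 0.134) and the glutamate transporter genes Slc1a2 (0.01 ± 0.177) and Slc1a3 (0.01 ± 0.139). Aldh1l1, which drives the recombinase, differed by -0.08 ± 0.123 and Rpl22, the tagged gene, by 0.12 ± 0.108. Serpina3n, a reactive astrocyte gene, differed by 0.27 ± 0.193 and complement C3 by -0.13 ± 0.210. Ggta1, of the complement and neurotoxic-type list, had 5.04, 5.56 and 4.47 CPM at 3 weeks and 2.23, 1.89 and 3.06 CPM uninjured. Its log2 fold change was 1.07 ± 0.272 (unadjusted p = 0.000668 in edgeR, not called). In that list 9 genes were higher and 5 lower (median 0.13), and in the pan-reactive list 9 higher and 4 lower (median 0.13). Mean log2 CPM of both lists overlapped between the groups. Lcn2 stayed under 1 CPM in all 6 libraries, which leaves its fold change undetermined at this depth.

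Other abundant genes were lower at 3 weeks, among them the connexin genes, the extracellular matrix gene Bcan and Pkm, described below. Bcan had 1760, 1680 and 1750 CPM at 3 weeks and 2090, 2130 and 2060 CPM uninjured, without overlap. Its log2 fold change was -0.27 ± 0.104. Gja1, which encodes connexin 43, had 1980, 2160 and 2420 CPM at 3 weeks and 2510, 2860 and 2580 CPM uninjured, a log2 fold change of -0.28 ± 0.0912 (unadjusted p = 0.00594, adjusted p = 1 in edgeR). Gjb6, which encodes connexin 30, had 682, 865 and 872 CPM at 3 weeks and 961, 1020 and 974 CPM uninjured, a log2 fold change of -0.29 ± 0.111. Neither gene's groups overlapped. The list of gap junction, potassium and water genes that holds them had 13 of 20 members lower, against 51.6% of all genes. Of the 20, 4 were lower at an unadjusted p under 0.05, against 1.42% of all genes, namely Aqp6, Gja1, Gjb6 and the potassium channel gene Kcnk2. The list's median log2 fold change was -0.05, against -0.01 over all genes.

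The female comparison shares no library with the male one, although the female libraries entered the choice of these genes through the spread that the fit shares. Of the 474 genes at an unadjusted p under 0.05 in males, 363 had the same sign in females (76.6%), against 8755 of all 15380 genes (56.9%). Genes are not independent of each other, so these shares are given without a test. Of the 23 leading genes, 22 had the same sign in females, and 17 of them had an unadjusted p under 0.05 there in edgeR. Among all 10323 genes with at least 5 CPM, 6047 had the same sign (58.6%), and 716 of these had such a p in females. Without the female library that stood apart, 367 of the 474 genes (77.4%) and 23 of the 23 leading genes had the same sign, against 57.7% of all genes.

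The exception with all female libraries was Sox1, which had 95.2, 99.9 and 90.0 CPM in females at 3 weeks and 95.6, 94.1 and 101 CPM in uninjured females, a log2 fold change of -0.03 ± 0.0951. The male effect exceeded the female one by 0.45 ± 0.134, with an unadjusted p of 0.00273 and an adjusted p of 1 in edgeR. In females at 3 weeks Sox1 overlapped with its uninjured level, while in males it did not. Rflnb lay in the opposite relation, with 15.1, 18.2 and 20.9 CPM in females at 3 weeks and 40.1, 36.3 and 33.0 CPM in uninjured females, a log2 fold change of -1.01 ± 0.134. Its male effect was smaller in size by 0.52 ± 0.189 on the log2 scale (unadjusted p = 0.0114, adjusted p = 1 in edgeR). Bcam had 43.6, 39.5 and 33.8 CPM in females at 3 weeks and 46.5, 44.7 and 46.4 CPM in uninjured females, and its male effect minus its female effect was -0.19 ± 0.125 (unadjusted p = 0.151, adjusted p = 1 in edgeR).

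**Figure D2:**
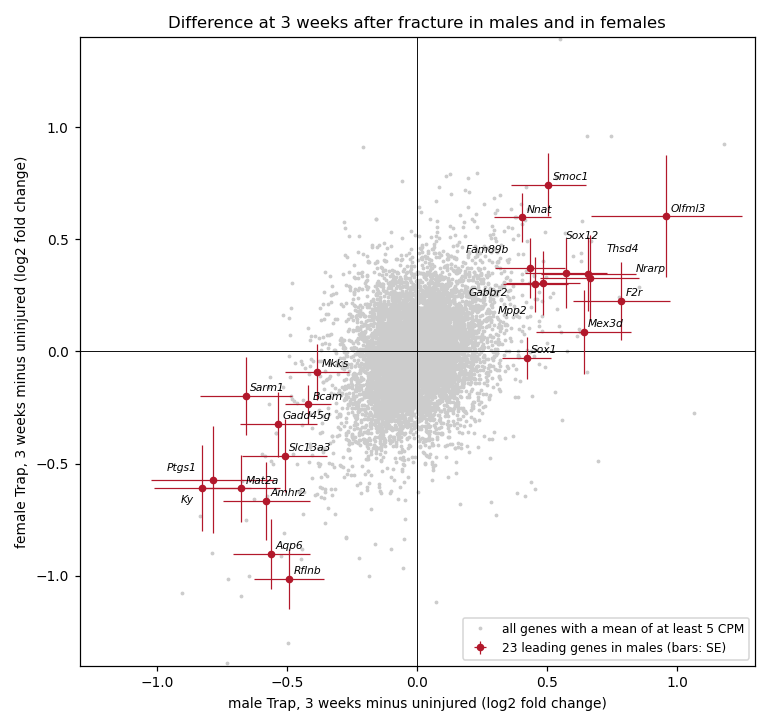
Log2 fold change at 3 weeks against uninjured in males (horizontal axis) and in females (vertical axis), with grey points for all genes of at least 5 CPM that lie within the axes and red points with standard errors for the 23 leading male genes. Of these, 22 lie in the quadrants where both sexes have the same sign, and Sox1 lies just below 0 in females.

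The genes with the smallest p for a difference between the sexes, none of them called, fell into 2 patterns. They were chosen 6 each way by that difference, so which sex has the lower effect is fixed by the choice and is no support. The 6 genes of one pattern were lower at 3 weeks in males and higher in females. They were Acat2 and Aacs, which make acetoacetyl-CoA for lipid synthesis, Hpgd, which degrades prostaglandins, the phosphodiesterase gene Pde1b, the small Maf transcription factor gene Mafg, and Smim19. Hpgd had 42.0, 37.2 and 43.8 CPM in males at 3 weeks and 43.2, 52.1 and 48.7 CPM in uninjured males, a log2 fold change of -0.23 ± 0.112, against 0.35 ± 0.113 in females. The male effect minus the female effect was -0.58 ± 0.159 for Hpgd and -0.67 ± 0.190 for Aacs. On the other side stood Sox1 and 5 genes, Cgnl1, Kcnt1, Wnk2, Acss3 and Dclre1a, whose log2 fold changes lay between -0.05 and 0.16 in males and between -0.84 and -0.49 in females. Wnk2, a kinase that controls ion cotransport, had 66.0, 98.4 and 77.5 CPM in males at 3 weeks and 86.5, 86.2 and 69.2 CPM in uninjured males, with overlap, and its log2 fold change was 0.00 ± 0.149 in males and -0.63 ± 0.149 in females.

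Groups of genes are described by counts and medians, and no list holds a called gene. Among all genes tested, 51.6% were lower and 48.4% higher at 3 weeks in males, with a median log2 fold change of -0.01. Members of a pathway share their regulation and the same 6 libraries, so a count on one side of 0 is no test.

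The study's title names astrocyte metabolism, and none of the genes of energy metabolism listed here was called. Of 24 genes of glycolysis and lactate handling, 23 were lower at 3 weeks, with a median of -0.16, and for 11 of them the groups did not overlap, against 5.87% of all genes on that side. Pkm, which encodes the last enzyme of glycolysis, had 2430, 2410 and 2340 CPM at 3 weeks and 2750, 2770 and 2700 CPM uninjured, a log2 fold change of -0.19 ± 0.0818 (unadjusted p = 0.026 in edgeR). Pfkp, a phosphofructokinase, had 538, 686 and 532 CPM at 3 weeks and 745, 822 and 723 CPM uninjured, a log2 fold change of -0.38 ± 0.146. Every library at 3 weeks was below every uninjured one for both. Eno1 (-0.19 ± 0.098), Pgk1 (-0.18 ± 0.103) and the lactate carrier gene Slc16a1 (-0.25 ± 0.120) lay on the same side. The mean log2 CPM over the list was 8.07 to 8.17 at 3 weeks and 8.21 to 8.32 uninjured. In females the median of this list was -0.07, and 0 members differed between the sexes at an unadjusted p under 0.05.

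Nuclear genes of oxidative phosphorylation were lower in 70 of 71 cases, with a median of -0.08, and the groups did not overlap for 11, against 5.87% of all genes on that side. Mean log2 CPM over the list overlapped, with 7.10 to 7.28 at 3 weeks and 7.19 to 7.36 uninjured. Ndufs1, a subunit of complex I, had 269, 269 and 222 CPM at 3 weeks and 294, 301 and 308 CPM uninjured (log2 fold change -0.25 ± 0.0889), and the ATP synthase gene Atp5b differed by -0.17 ± 0.0804. Without 3-week replicate 1, 50 of the 71 genes were lower, with a median of -0.04, which was also the median without uninjured replicate 2. In females the median was 0.07, and 0 members differed between the sexes at an unadjusted p under 0.05. The mitochondrially encoded genes lay on the other side, with 11 of 13 higher and a median of 0.08. That median ran from -0.12 to 0.31 when single libraries were left out (-0.11 without 3-week replicate 2, -0.01 without uninjured replicate 1, -0.12 without uninjured replicate 3), and the mean log2 CPM of 5.17 to 6.08 at 3 weeks overlapped with 4.85 to 6.02 uninjured. Genes of the tricarboxylic acid cycle and pyruvate entry were lower for 29 of 32 (median -0.09), those of fatty acid oxidation for 22 of 28 (median -0.08) and those of glycogen metabolism for 17 of 20 (median -0.07). Pygm, the glycogen phosphorylase of the list, had 779, 879 and 722 CPM at 3 weeks and 954, 1000 and 899 CPM uninjured, without overlap, and like Mat2a it has a second record with identical counts, so its level is uncertain.

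**Figure D3:**
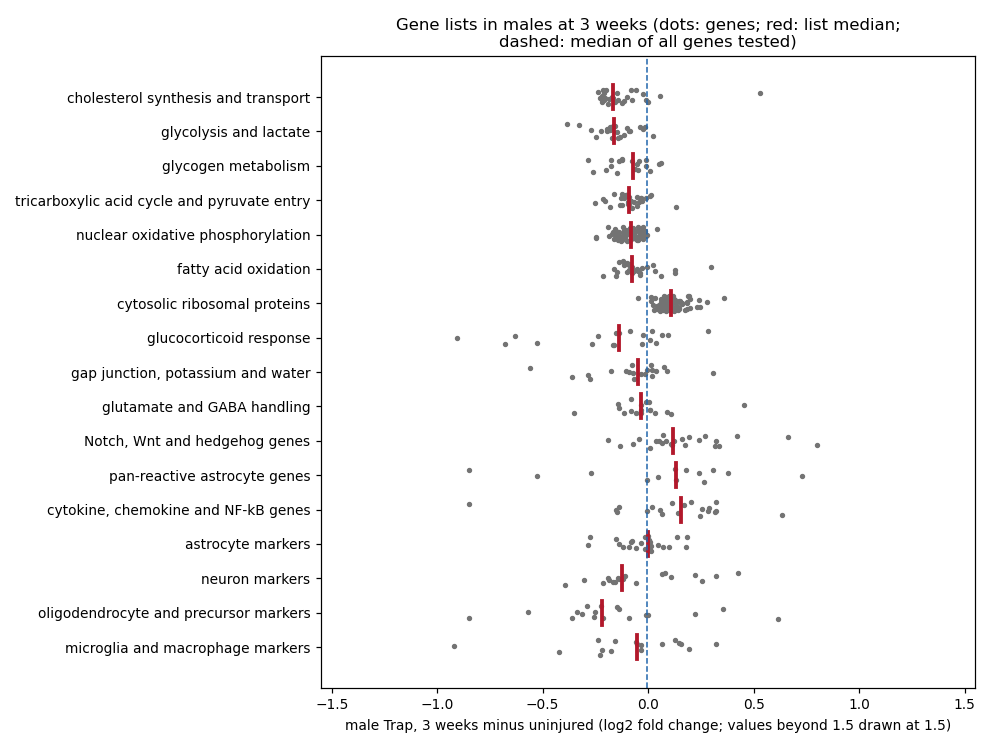
Log2 fold change of each gene of 17 lists in males, 3 weeks minus uninjured, with grey dots for genes, a red bar for the list's median and a dashed line for the median of all genes tested. Glycolysis (-0.16), cholesterol synthesis and transport (-0.17) and oxidative phosphorylation (-0.08) have medians below the dashed line and cytosolic ribosomal proteins (0.11) above it.

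Genes of cholesterol synthesis and transport had opposite sides in the sexes. Astrocytes supply neurons with cholesterol, and the transcription factor SREBP2, encoded by Srebf2, raises the synthesis enzymes when sterols are scarce. In males 27 of 29 listed genes were lower at 3 weeks (median -0.17), 3 of them at an unadjusted p under 0.05 (1.42% of all genes) and 6 without overlap (5.87% of all genes), and only the cholesterol exporter genes Abca1 (0.06 ± 0.337) and Abcg1 (0.53 ± 0.391) were higher. In females the median was 0.13. For 11 of the 29 genes the effect differed between the sexes at an unadjusted p under 0.05, against 2.59% of all genes, and all of these had the lower effect in males, against 1.37% of all genes. That number depended on single libraries: it was 2 without female 3-week replicate 1, 3 without uninjured male replicate 3, 17 without female 3-week replicate 2, and 9 without the 2 libraries of the whole fit that stood apart. Mean log2 CPM over the list was 6.98 to 7.05 in males at 3 weeks, 7.00 to 7.20 in uninjured males, 6.96 to 7.20 in females at 3 weeks and 6.84 to 7.06 in uninjured females, so the groups overlapped within each sex.

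Acat2, an early enzyme that condenses acetyl-CoA, had 66.9, 62.7 and 66.1 CPM in males at 3 weeks and 67.2, 79.8 and 77.2 CPM in uninjured males. In females it had 74.5, 66.4 and 71.3 CPM at 3 weeks and 58.2, 53.7 and 58.8 CPM uninjured. Neither sex had overlapping groups, and the log2 fold changes of -0.20 ± 0.100 in males and 0.31 ± 0.101 in females differed by -0.51 ± 0.142 (unadjusted p = 0.00147, adjusted p = 1 in edgeR). Hmgcs1, which makes HMG-CoA as substrate of the rate-limiting reductase, had 764, 780 and 898 CPM at 3 weeks and 823, 1010 and 1030 CPM in uninjured males, with overlap (-0.23 ± 0.143). Sc5d, a late enzyme, had the smallest p of the list in males, with 214, 216 and 234 CPM at 3 weeks and 242, 273 and 257 CPM uninjured (-0.22 ± 0.0787, unadjusted p = 0.0112 in edgeR). Cyp51, a demethylase of lanosterol, differed by -0.21 ± 0.0926 and Sqle, squalene epoxidase, by -0.22 ± 0.103. Srebf2 itself differed by -0.02 ± 0.109.

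**Figure D4:**
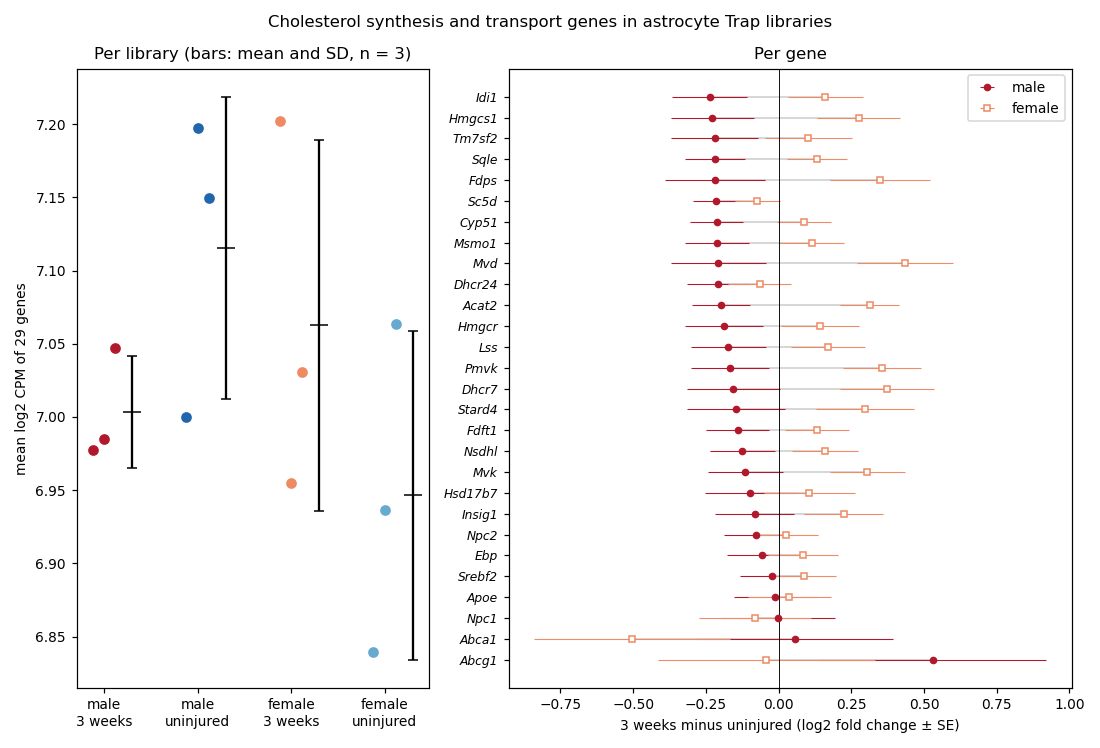
Left, mean log2 CPM of 29 genes of cholesterol synthesis and transport in each library by sex and injury state, with bars for the mean and SD (n = 3). Right, log2 fold change and standard error of single genes of the list in males (filled) and females (open); the male values drawn lie below 0 except those of Abca1 and Abcg1, and most female values lie to their right.

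The upstream sequences of Acat2, Hmgcs1 and Sc5d are shown as examples, since sterol genes are classic cases of control by such sequences. In males 27 of the 29 listed genes were lower, so being lower does not single these out. They are the 250 bases before the gene start from RefSeq (GRCm38.p6), written 5' to 3' on the gene's strand, at chr17:12960726-12960975 (minus strand), chr13:119690101-119690350 (plus strand) and chr9:42264301-42264550 (minus strand) in that order. Bases just after this start were found in a GENCODE M21 transcript of the gene for Acat2, but not for Hmgcs1 or Sc5d. Distances below therefore hold for the RefSeq start only. Capitals mark the sterol regulatory element core CACCCCAC and the CCAAT box, which reads ATTGG on the opposite strand, both searched on both strands.

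Acat2: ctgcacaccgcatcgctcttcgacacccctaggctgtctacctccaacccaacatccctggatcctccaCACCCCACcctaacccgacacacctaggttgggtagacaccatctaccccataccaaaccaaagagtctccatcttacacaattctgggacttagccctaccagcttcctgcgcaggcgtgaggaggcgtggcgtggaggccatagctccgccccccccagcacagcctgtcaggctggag

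Hmgcs1: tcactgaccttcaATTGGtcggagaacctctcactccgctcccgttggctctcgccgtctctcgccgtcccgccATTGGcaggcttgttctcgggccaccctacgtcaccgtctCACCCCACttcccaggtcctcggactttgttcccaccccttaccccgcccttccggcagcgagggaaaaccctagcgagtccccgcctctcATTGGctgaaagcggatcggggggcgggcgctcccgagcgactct

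Sc5d: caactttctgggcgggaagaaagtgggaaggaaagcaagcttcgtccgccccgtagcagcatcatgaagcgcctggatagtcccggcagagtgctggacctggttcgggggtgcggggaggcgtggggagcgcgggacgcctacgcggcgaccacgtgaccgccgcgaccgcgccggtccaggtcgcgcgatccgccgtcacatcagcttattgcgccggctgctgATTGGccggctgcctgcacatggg

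The sterol core occurred 181 bases before the start in Acat2 and 136 bases before it in Hmgcs1, and Hmgcs1 also held CCAAT boxes at 237, 176 and 45 bases. Sc5d held 1 CCAAT box at 24 bases and no match to the sterol core in this window. Of 30 listed genes, 20 had a promoter in the RefSeq table, and 2 of these 20 held CACCCCAC. They were Acat2 and Hmgcs1, both shown here, so the sequences shown are not typical of the list in this. Over all gene symbols with a promoter, 805 of 27025 held it in at least 1 window of the same length (2.98%). A CCAAT box was found in 17 of the 20 (85.0%), against 10133 of the 27025 (37.5%). These matches describe letters in the window and do not locate a bound factor.

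Cytosolic ribosomal protein genes were higher at 3 weeks in 73 of 74 cases, with a median of 0.11 in males and 0.30 in females, and 20 of the 74 did not overlap between the male groups, against 5.4% of all genes on that side. Rps27 had 32.7, 33.7 and 31.9 CPM at 3 weeks and 25.7, 26.5 and 24.5 CPM uninjured, a log2 fold change of 0.36 ± 0.192, and Rps19 differed by 0.24 ± 0.180. None of the 74 reached an unadjusted p under 0.05 in males, and the standard errors of those 20 ran from 0.111 to 0.217.

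Most members of the Notch, Wnt and hedgehog list and of the cytokine list were higher at 3 weeks, none of them called. Of 24 Notch, Wnt and hedgehog genes, 20 were higher at 3 weeks in males (median 0.12), among them the Wnt receptor genes Fzd2 (0.34 ± 0.166) and Fzd10 (0.42 ± 0.227) and, with the smallest p, Nrarp. Their mean log2 CPM was 4.73 to 4.91 at 3 weeks and 4.60 to 4.64 uninjured in males, without overlap, and 4.40 to 4.79 at 3 weeks and 4.50 to 4.78 uninjured in females, with overlap. Cytokine, chemokine and NF-kB genes were higher for 15 of 20 (median 0.16), with 3 of the 20 higher at an unadjusted p under 0.05, against 1.66% of all genes. These were Nfkb1 (0.32 ± 0.115), the TNF receptor gene Tnfrsf1a (0.26 ± 0.108) and Stat3 (0.32 ± 0.143), a mediator of astrocyte reactivity. Stat3 had 161, 168 and 137 CPM at 3 weeks and 131, 121 and 122 CPM uninjured, without overlap.

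Glucocorticoid response genes were lower for 13 of 19 (median -0.14 in males and -0.43 in females), 4 of the 19 lower at an unadjusted p under 0.05, against 1.42% of all genes. The male median was -0.06 without 3-week replicate 1, and the mean log2 CPM of 6.15 to 6.48 at 3 weeks overlapped with 6.38 to 6.57 uninjured. Tsc22d3, known as GILZ, had 277, 316 and 329 CPM at 3 weeks and 516, 397 and 413 CPM uninjured (log2 fold change -0.52 ± 0.211, unadjusted p = 0.0215 in edgeR), without overlap. Klf9 was also without overlap (-0.27 ± 0.125), while Cdkn1a (-0.68 ± 0.297) and Zbtb16 (-0.91 ± 0.409) overlapped. Among circadian genes, the output regulators Dbp (0.57 ± 0.220) and Hlf (0.26 ± 0.121), were higher at 3 weeks without overlap. The hour of tissue collection was not given in the sources used here, and its part in these values was not tested.

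Olig2, a transcription factor best known from the oligodendrocyte lineage and also found in some astrocytes, had 219, 256 and 241 CPM at 3 weeks and 140, 167 and 160 CPM uninjured, a log2 fold change of 0.62 ± 0.232 (unadjusted p = 0.0153, adjusted p = 1 in edgeR). Its groups were far apart for their spread, and in a fit of the 6 libraries alone its adjusted p was 0.014 in edgeR. Olig1 had 1000, 871 and 871 CPM at 3 weeks and 840, 693 and 820 CPM uninjured. The other markers of oligodendrocytes and their precursors lay mostly on the opposite side, with 15 of 18 lower and a list median of -0.22, which was 0.07 without uninjured replicate 2 and -0.48 without uninjured replicate 3. In females Olig2 differed by 0.07 ± 0.232.

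Single Input libraries of male whole cord, 1 at 3 weeks and 1 uninjured, give a second view without replicates. Their column names share a prefix with Trap replicate 1 of each group, so they may come from the same cords as libraries that chose the genes. Of the 23 leading genes, 20 had the same sign in Input as in Trap, against 56.1% of the genes with at least 5 CPM. Mat2a had 66.9 CPM in Input at 3 weeks and 97.3 CPM in uninjured Input, and Nnat had 127 CPM at 3 weeks and 92.3 CPM uninjured. Sarm1, Ky and Thsd4 had the other sign in Input by at most 0.05 on the log2 scale. The lists went both ways in Input. Lower at 3 weeks there were 8 of 29 cholesterol genes (median difference 0.15), 28 of 71 oxidative phosphorylation genes (0.03) and 12 of 24 glycolysis genes, unlike in Trap. Glucocorticoid response genes were lower for 17 of 19 and ribosomal protein genes for 5 of 74, on the same side as in Trap. Of all 15380 genes, 7964 were lower in Input. Where other cells express a gene, Input reports them too.

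The later times in males were set against the same 3 uninjured libraries, so their values are given side by side only. Bcam had 48.8, 51.3 and 46.6 CPM at 5 weeks and 48.0, 51.9 and 49.9 CPM at 7 weeks, above its 3 libraries at 3 weeks and below the uninjured ones. Sox1 had 86.4, 98.0 and 102 CPM at 5 weeks and 82.5, 106 and 97.6 CPM at 7 weeks, below its libraries at 3 weeks. Mat2a had 84.3, 88.4 and 76.0 CPM at 5 weeks and 93.3, 95.2 and 74.0 CPM at 7 weeks. The log2 fold change of Nnat against uninjured was 0.40 at 3 weeks, 0.00 at 5 weeks and 0.05 at 7 weeks, and that of Thsd4 was 0.66, 0.58 and -0.03 in the same order. Sarm1 gave -0.66, -0.13 and -0.54, the value at 7 weeks with an unadjusted p of 0.00501 in edgeR. Of 71 oxidative phosphorylation genes, 70 were lower at 5 weeks (median -0.12) and 6 at 7 weeks (median 0.19). Lower at 5 and 7 weeks were 21 and 8 of 24 glycolysis genes, and 29 and 17 of 32 tricarboxylic acid cycle genes. For fatty acid oxidation it was 22 and 12 of 28, for cholesterol 21 and 22 of 29, and for ribosomal proteins 48 and 0 of 74. Of all 15380 genes, 7640 and 7381 were lower.

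**Figure D5:**
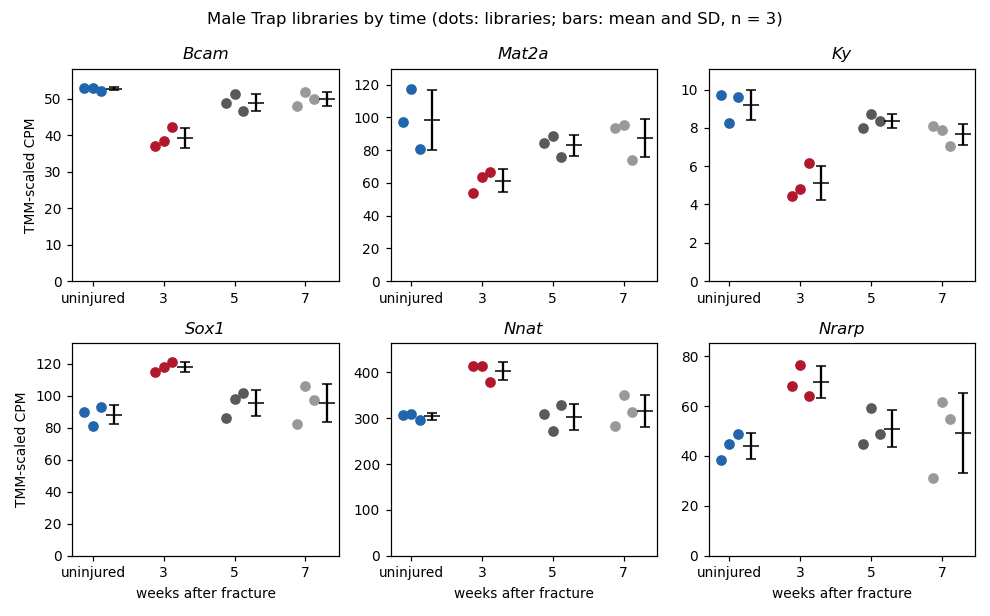
TMM-scaled CPM of 6 leading genes in the 12 male Trap libraries, from uninjured through 3, 5 and 7 weeks after fracture, with dots for libraries and bars for the mean and SD (n = 3). Bcam at 3 weeks (37.1 to 42.3 CPM) lies below and Sox1 at 3 weeks (115 to 121 CPM) above all their other male libraries, as the genes' choice at 3 weeks favours.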

How the data were processed

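The table deposited by the authors gives estimated counts (expected counts) from RSEM for every Ensembl gene in all 32 libraries. Libraries were made by poly-A selection, per the labels' protocols. FastQC, Trim Galore, STAR and RSEM were used with GRCm38, per the submitters' processing notes; the sources used here give neither their versions nor the annotation release. Where genes resemble each other or overlap, RSEM splits the reads between them and both levels are uncertain. Column names of the table were matched to the labels.

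Estimated counts were rounded to whole numbers. The main test was the quasi-likelihood test of edgeR 4.0.16 under R 4.3.3 (2-sided; filterByExpr, TMM, glmQLFit with robust=TRUE and legacy=FALSE), on 1 fit of the 24 Trap libraries with 8 group means, 16 residual degrees of freedom and a median biological coefficient of variation of 0.138. Benjamini-Hochberg adjustment ran over the 15380 genes, and an adjusted p under 0.05 is a call. The shared spread lets female and later libraries set the error of the male comparison. CPM values are TMM-scaled, except the summed markers, the Ddx3y ranges and the Trap to Input ratios, which use each library's total count alone. Gene positions come from GENCODE M21 on GRCm38.

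The named genes were the 12 each way with the smallest p in males and the 6 each way with the smallest p for the difference between the sexes (mean of at least 5 CPM, no predicted or unnamed models), up to 2 members with the smallest p from each of 39 lists (6 for the cholesterol and glucocorticoid lists), and a fixed panel. Other list members and the genes just outside the set were named after their values were seen. The members and lists were chosen with earlier results of these data known. The tests were checked on simulated counts.

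The same replicate numbers stand in both groups, and column names of the table share a prefix per number. Deviations from the group means correlated by 0.396, 0.177 and 0.182 between same-numbered libraries. Between libraries of unlike number they ran from -0.343 to 0.129. The numbers may therefore pair the libraries, but what they mark is not stated. The main fit has no block, so its standard errors and p-values take no pairing into account. A replicate block was fitted as an alternative. The other alternatives were DESeq2's size factors, DESeq2 1.42.0 as the test, no filter on low counts, fits of fewer libraries and leaving out each library. No pair of replicates agreed within counting noise. Some genes that the rule names are left out of the text.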

Additional observations from a re-analysis of the deposited data

How the results depend on the processing

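The count of called genes stayed at 0 in males and for the difference between the sexes with DESeq2's size factors, without a filter on low counts, with the replicate block (532 genes in males at an unadjusted p under 0.05, smallest adjusted p 0.72), with the replicate block within sex (627 genes, smallest adjusted p 0.404), and without each library in turn (0 to 0). DESeq2 as the test called 1 gene in each, Bcam in males and the unnamed model Gm5537 for the difference. The extreme value for Gm5537 was 23.4 ± 4.16 on the log2 scale in DESeq2, and edgeR did not call it. A fit of the 6 compared libraries called 4 records, Olig2 (0.62), Nrarp (0.67) and both overlapping records of Fam220a, with 845 genes at an unadjusted p under 0.05. A fit without the 2 libraries that stood apart, neither of them among the 6, gave 744 such genes, against 474 with all libraries. The median shift of the male log2 fold changes was 0.007 with DESeq2's size factors and at most 0.009 over all the alternatives.

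Leaving out each of the 6 male libraries moved some list medians by more than their spread between replicates. The lowest and highest medians were -0.25 and -0.08 for cholesterol synthesis and transport, 0.02 and 0.30 for mural and fibroblast markers, -0.09 and 0.45 for endothelial markers, 0.05 and 0.42 for ependymal markers, -0.13 and 0.24 for immediate early genes, 0.09 and 0.20 for cytokine and NF-kB genes, and 0.05 and 0.14 for circadian genes. They were -0.13 and -0.06 for glycogen metabolism, -0.14 and -0.05 for the unfolded protein response, -0.07 and 0.06 for synaptogenic factors, -0.04 and 0.09 for actin regulators, -0.05 and 0.04 for antioxidant genes, and -0.03 and 0.00 for glutamate and GABA handling. Medians of lists whose libraries differed more among themselves moved by less than that spread but also turned in sign, from -0.48 to 0.07 for oligodendrocyte markers, -0.12 to 0.31 for mitochondrially encoded genes, -0.24 to 0.03 for neuron markers and -0.77 to 0.06 for blood cell genes. Counts of sterol genes with a difference between the sexes ran from 2 to 17. The cause of these shifts was not tested.

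Genes near 0 changed sign. Wnk2 gave -0.01 with the replicate block within sex and -0.16 to 0.13 without single libraries. Without single libraries the values were -0.16 to 0.08 for Acss3, -0.07 to 0.55 for Lcn2, -0.01 to 0.30 for Kcnt1, -0.07 to 0.07 for Aqp4, -0.08 to 0.07 for Glul, -0.01 to 0.04 for Slc1a2, -0.02 to 0.05 for Slc1a3 and -0.16 to 0.00 for Aldh1l1. At the median standard error, a gene needed a log2 fold change of 1.03 over all genes, or 0.82 at 5 CPM and above, to be called as the first.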
